A study of Mus musculus with 4 samples.

Results

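The ligands, receptors and signalling SMADs of the TGF-b pathway were examined in cultured stromal cells of mouse bone marrow, labelled as mesenchymal stem cells. The set comprised 10 genes chosen by their role: the ligand genes Tgfb1, Tgfb2 and Tgfb3, the receptor genes Tgfbr1, Tgfbr2, Tgfbr3 and Eng, and the SMAD genes Smad2, Smad3 and Smad4. A probe set was taken where the platform annotation gave it only that gene symbol. Each of the 10 genes had 1 such probe set, among 22180 genes with a probe set of their own, and all 10 were among the 13308 genes kept after a filter on low values. The cells were either Snail1-WT or Snail1-KO, and each genotype was assayed without treatment and after 2 h of TGF-b1. With a single array for each of the 4 groups, no difference has a replicate check and no p-value is given. The sources used here do not give the dose of TGF-b1, how the Snail1-KO cells were made, or whether the cultures came from 1 clone, from pooled animals or from separate animals.

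TGF-b ligands are secreted in a latent form, held by a propeptide, and must be released before they can bind. The released ligand brings together the type II receptor TGFBR2 and the type I receptor TGFBR1, which phosphorylates SMAD2 and SMAD3. These join SMAD4, enter the nucleus and change transcription, including that of the pathway's own components. Snail1, the product of Snai1, is a transcriptional repressor that TGF-b induces in mesenchymal and epithelial cells.

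Values are RMA log2 values, so a difference of 1 is 2-fold, and differences are taken only between arrays for the same probe set. Levels of different genes are set against each other only by the filter on low values and in the search for genes nearest in level. A gene was called when it differed by at least 1.5-fold, which is 0.585 on the log2 scale. As a description of error, a yardstick SD for a difference between 2 arrays was taken from how far the responses to TGF-b1 of both genotypes disagreed among the 500 kept genes nearest in level. It ranged from 0.08 for Tgfbr2 to 0.18 for Tgfbr1. Spread that both arrays of a genotype have in common is not part of it. Snai1, the targeted gene, measured 6.69 in untreated and 7.63 in treated Snail1-WT cells, against 5.09 and 5.34 in Snail1-KO cells, the direction of the labels.

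The labelled cell type was set against its markers. Of 11 measured mesenchymal stem cell markers, 9 passed the filter, with the platelet-derived growth factor receptor gene Pdgfra between 10.1 and 11.1, and Pdgfrb between 10.7 and 11.6. Thy1, Alcam and Nes passed with values between 5.19 and 6.13. Nt5e and Lepr did not pass, and Lepr stayed between 2.86 and 3.20. Of 11 haematopoietic markers 5 passed, and Ptprc, the pan-leukocyte gene, lay between 3.15 and 3.78, below the lowest kept mean of 4.51 on every array. Cd14, which passed, reached 6.59 in untreated Snail1-KO cells. Of 12 endothelial markers 5 passed, and none exceeded 5.27. Of 10 smooth muscle and pericyte markers 9 passed, with Acta2 between 11.7 and 11.8, and of 11 epithelial markers 6 passed. The level summed over a list, as log2, is carried by its brightest probe sets and serves only to compare the arrays with each other within that list. It ran over the 4 arrays from 7.99 to 8.07 for the endothelial and from 8.15 to 8.41 for the haematopoietic markers. The mesenchymal sum ran from 12.9 to 13.2, the smooth muscle and pericyte sum from 12.1 to 12.3 and the epithelial sum from 8.03 to 8.19.

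After TGF-b1 the type I receptor gene was higher and the type II receptor gene lower, each by nearly the same amount in both genotypes. Their promoters are shown for that reason, as the RefSeq sequence of the 250 bases before the start site in build GRCm38.p6, 5′ to 3′ on the gene's strand. Tgfbr1 has 2 start sites in that table, and the one farther upstream is shown, at chr4:47352972-47353221 on the plus strand. That of Tgfbr2 lies at chr9:116175364-116175613 on the minus strand. Capitals mark matches on either strand to GGGCGG, the GC box, and to CAGAC, a SMAD-binding element.
Tgfbr1: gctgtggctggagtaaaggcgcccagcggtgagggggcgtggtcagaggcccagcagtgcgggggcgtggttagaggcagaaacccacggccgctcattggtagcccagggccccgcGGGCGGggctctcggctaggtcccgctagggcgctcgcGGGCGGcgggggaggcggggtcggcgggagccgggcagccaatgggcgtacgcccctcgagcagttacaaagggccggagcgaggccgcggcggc
Tgfbr2: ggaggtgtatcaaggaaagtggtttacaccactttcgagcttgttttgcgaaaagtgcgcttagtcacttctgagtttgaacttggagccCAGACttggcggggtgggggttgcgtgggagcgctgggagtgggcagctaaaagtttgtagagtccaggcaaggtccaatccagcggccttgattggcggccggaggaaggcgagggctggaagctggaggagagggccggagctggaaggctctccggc

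The Tgfbr1 window was 74.8% G or C and held 29 CpG dinucleotides. The Tgfbr2 window was 58.4% G or C and held 12, against medians of 52.4% and 6 over all windows of that length. The Tgfbr1 window held 2 GC boxes, beginning 133 and 95 bases before the start site, and no CAGAC. The window of the other Tgfbr1 start site held the reverse, no GC box and 1 CAGAC, beginning 203 bases before that site. The Tgfbr2 window held no GC box and 1 CAGAC, beginning 160 bases before the start site. Of 32841 windows of this length, 32.7% held GGGCGG and 42.2% held CAGAC, so matches of either kind are common. Of the 10 genes, 6 matched the promoter table, with 7 start sites, and Tgfb3, Tgfbr3, Smad2 and Smad4 did not. None of the 7 windows held TGANTCA, the AP-1 site, TGACGTCA, the cyclic AMP response element, or CAGGTG, an E-box of the type that Snail1 binds, which were searched on both strands and occur in 6.75%, 1.55% and 17.2% of all windows. GGGCGG was in 3 of the 7 and CAGAC in 4.

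Of the 3 ligand genes, Tgfb3 alone passed 1.5-fold. Tgfb3, which encodes a ligand known for its part in palate and lung development, measured 8.30 without and 9.30 with TGF-b1 in Snail1-WT cells. In Snail1-KO cells it measured 7.79 untreated and 9.58 after TGF-b1. Both treated arrays lay above both untreated arrays, and the untreated Snail1-KO array was the lowest of all. The response was 0.999 in the Snail1-WT and 1.79 in the Snail1-KO genotype, which are 1.999-fold and 3.45-fold, or 11.7 and 21.0 yardstick SDs. Tgfb3 ranked 96th from the top among 13308 genes in the Snail1-WT response and 24th in the Snail1-KO response. All 3 steps between its ordered values exceeded 2 yardstick SDs.

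Tgfb1 encodes the same cytokine that was added to the cultures, but the array reads only the cells' own transcript. It measured 7.62 in untreated and 7.84 in treated Snail1-WT cells, and 7.79 in untreated and 8.06 in treated Snail1-KO cells. The treated value was the higher one in both genotypes, by 0.21 and 0.27, which are 1.87 and 2.40 yardstick SDs and below 1.5-fold. No step between its ordered values exceeded 2 yardstick SDs. Tgfb2, the third ligand gene, measured 6.37 and 6.27 in Snail1-WT cells and 6.41 and 6.49 in Snail1-KO cells, untreated and treated in that order. Its 4 values spanned 0.22, with a yardstick SD of 0.17, and had no clear order.

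**Figure D1:**
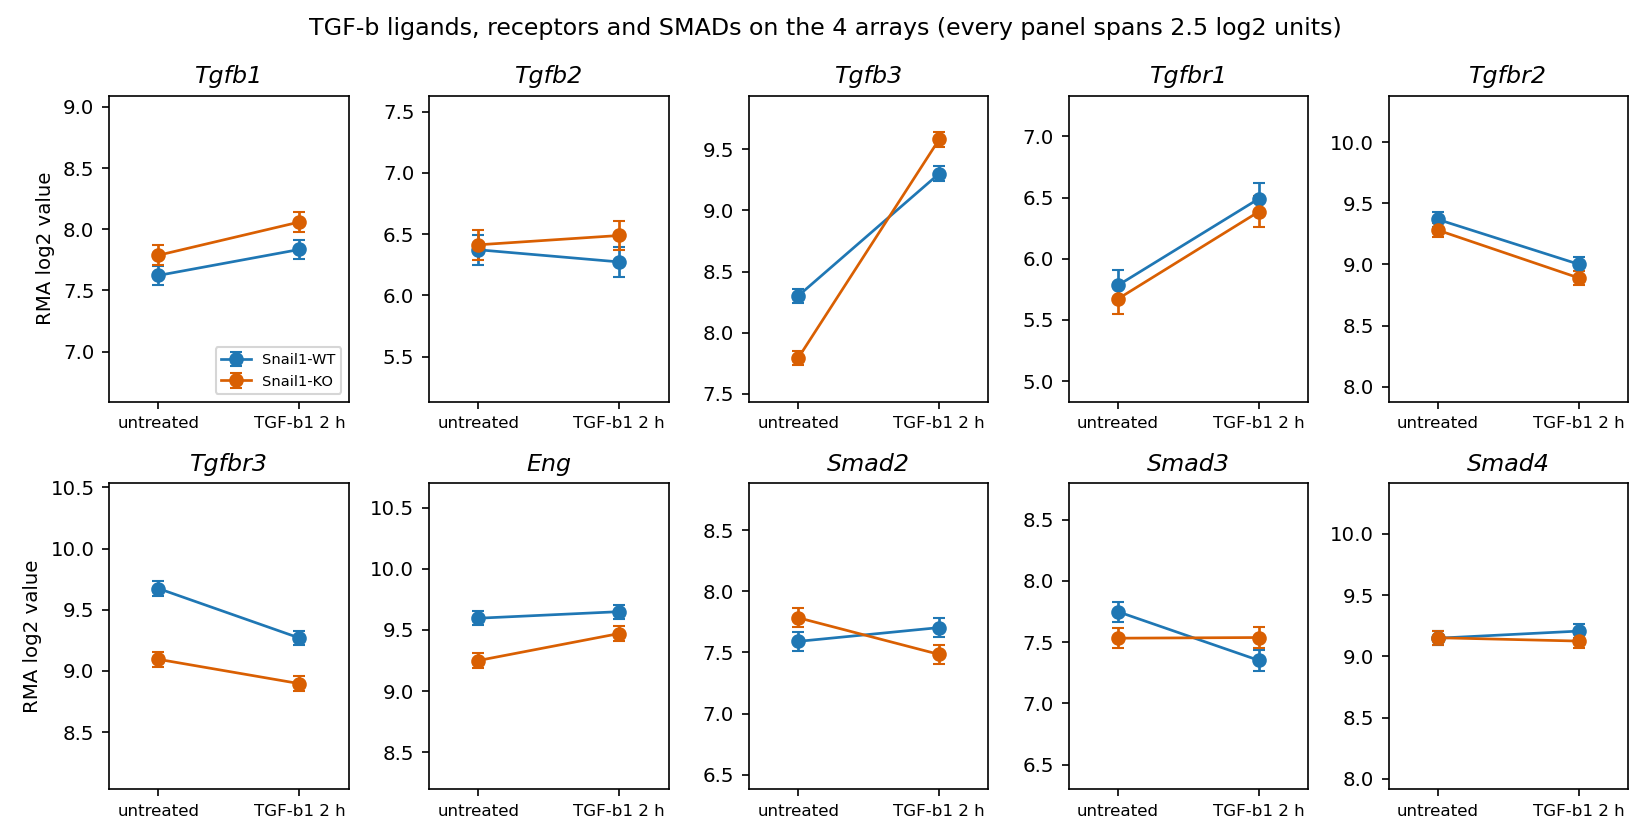
RMA log2 values of the 10 genes without and with 2 h of TGF-b1, 1 point per array, in Snail1-WT (blue) and Snail1-KO (orange) cells; every panel spans 2.5 log2 units and bars are the yardstick SD of a difference divided by the square root of 2. Tgfb3 and Tgfbr1 slope upward in both genotypes, Tgfbr2 and Tgfbr3 downward, and Smad4 is nearly flat.

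Among the receptors, Tgfbr1, encoding the type I kinase that phosphorylates SMAD2 and SMAD3, measured 5.78 in untreated and 6.49 in treated Snail1-WT cells. In Snail1-KO cells it measured 5.67 untreated and 6.39 treated. The treated values stood together above the untreated ones, and a gap of 0.60 between the treated Snail1-KO and the untreated Snail1-WT array separated them. The response was 0.71 in both genotypes, or 1.63-fold and 1.64-fold, at 3.96 and 3.98 yardstick SDs. It ranked 225th and 287th from the top among all kept genes.

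Tgfbr2 encodes the type II kinase, which binds the ligand and activates the type I receptor. It measured 9.37 in untreated and 9.00 in treated Snail1-WT cells, and 9.28 in untreated and 8.89 in treated Snail1-KO cells. Both treated arrays lay below both untreated ones. The Snail1-WT response was -0.37 and the Snail1-KO response -0.39, a 1.29-fold and 1.31-fold lower level, at -4.48 and -4.78 yardstick SDs but below the 1.5-fold call. Tgfbr2 ranked 1000th and 804th from the bottom among all kept genes. The response of Tgfbr1 thus exceeded that of Tgfbr2 by 1.07 in the Snail1-WT and by 1.10 in the Snail1-KO genotype.

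Tgfbr3 and Eng encode co-receptors. Tgfbr3, encoding betaglycan, which binds TGF-b2 with high affinity, measured 9.67 in untreated and 9.27 in treated Snail1-WT cells, and 9.09 in untreated and 8.90 in treated Snail1-KO cells. Each Snail1-KO value lay below both Snail1-WT values, and all 3 steps between the ordered values exceeded 2 yardstick SDs. The Snail1-WT response was -0.40 and the Snail1-KO response -0.20. Eng, encoding endoglin, an accessory receptor of endothelial and stromal cells, measured 9.60 and 9.65 in Snail1-WT cells and 9.25 and 9.47 in Snail1-KO cells, untreated and treated in that order. Its response was 0.05 and 0.22, or 0.65 and 2.69 yardstick SDs. In bulk samples, fewer cells of a type and less RNA per cell cannot be told apart. The endothelial markers, of which 5 of 12 passed the filter and none exceeded 5.27, are a weak gauge of such cells. The part of endothelial cells in the values of Eng was not tested.

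None of the 3 SMAD genes reached 1.5-fold in any comparison. Smad2 measured 7.59 in untreated and 7.70 in treated Snail1-WT cells, and 7.78 and 7.48 in Snail1-KO cells. Smad3, whose product binds DNA directly, measured 7.75 and 7.35 in Snail1-WT cells and 7.53 and 7.54 in Snail1-KO cells. The treated Snail1-WT array was the lowest for Smad3, while the treated Snail1-KO array was the lowest for Smad2. No step between neighbouring values of either gene exceeded 2 yardstick SDs, although the untreated to treated difference of Smad3 in Snail1-WT cells, -0.40, was -3.39 yardstick SDs. That response ranked 821st from the bottom among all kept genes. Smad4, the partner shared by all signalling SMADs, spanned 0.08 over the 4 arrays, between 9.12 and 9.21, with a yardstick SD of 0.08.

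With 2 h of TGF-b1, 2 of the 10 genes were at least 1.5-fold higher and 0 lower in Snail1-WT cells, namely Tgfb3 and Tgfbr1. In that comparison 4.37% of all kept genes were called, 2.48% as higher and 1.89% as lower. The same 2 genes were at least 1.5-fold higher and 0 lower in Snail1-KO cells, where 5.14% of all kept genes were called, 3.31% as higher and 1.83% as lower. Their responses share no array between genotypes. At 2-fold, none of the 10 was called in Snail1-WT cells, where Tgfb3 was just short, and Tgfb3 was the sole call in Snail1-KO cells; 0.984% and 1.31% of kept genes were called. The median response of the 10 was 0.06 in the Snail1-WT and 0.04 in the Snail1-KO genotype, against -0.03 and -0.02 over all kept genes. Their median absolute response was 0.29 and 0.25, against 0.15 and 0.16 over all kept genes.

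**Figure D2:**
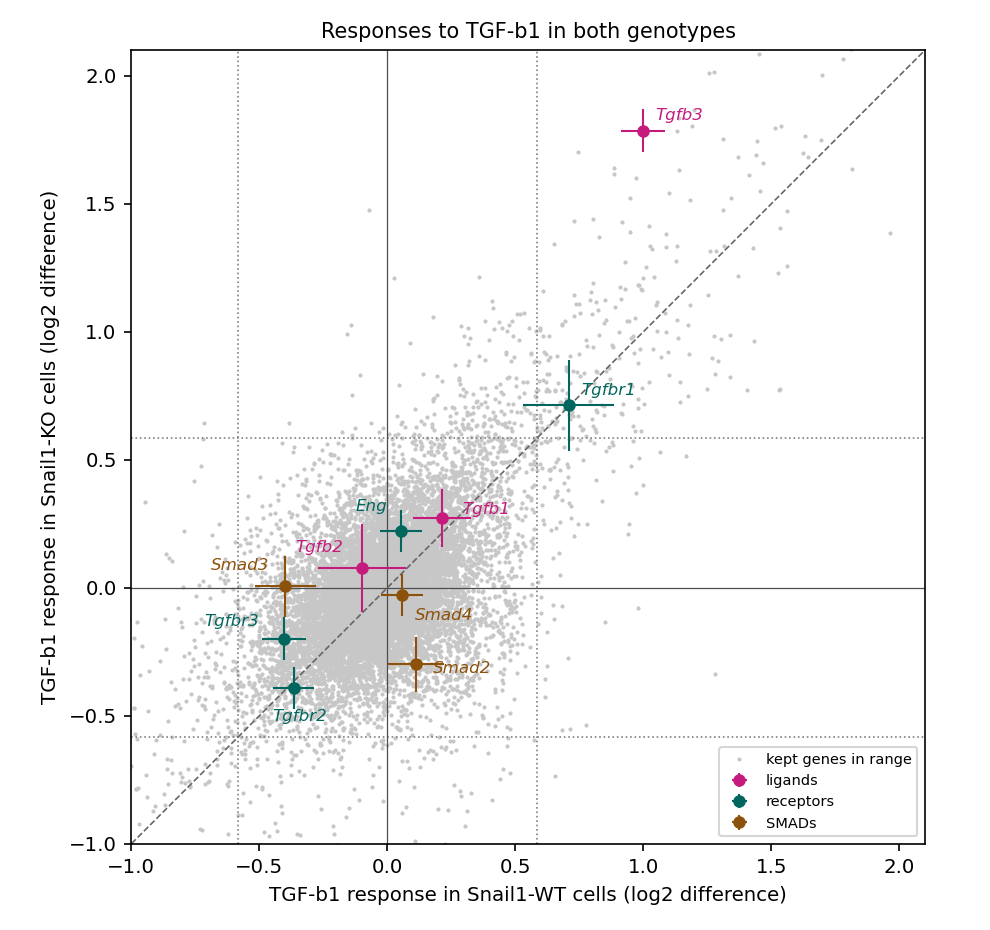
TGF-b1 response (treated minus untreated log2 value) in Snail1-WT cells on the x axis and in Snail1-KO cells on the y axis, for the 10 genes (coloured by role, bars of 1 yardstick SD) and the kept genes within the plotted range (grey); dotted lines mark 1.5-fold and the dashed line equal responses. Tgfbr1 and Tgfbr2 lie on the line of equal responses at opposite ends, and Tgfb3 lies above it at 0.999 and 1.79.

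Between the genotypes, all 4 receptor genes were lower in Snail1-KO cells, both without and with TGF-b1, and none of the 10 genes reached 1.5-fold in either pair. Tgfbr3 differed most, at -0.58 without TGF-b1, or 1.49-fold lower, and -0.37 with it, at -6.83 and -4.40 yardstick SDs. Eng differed by -0.35 and -0.18, at -4.21 and -2.18 yardstick SDs. The yardstick leaves out spread that both arrays of a genotype have in common. The median absolute difference over all kept genes was 0.18 without and 0.19 with TGF-b1. From the bottom of the kept genes, Tgfbr3 ranked 430th and 1264th in these pairs, and Eng 1472nd and 3451st. The kinase receptors differed by far less, Tgfbr1 by -0.11 and -0.11 and Tgfbr2 by -0.09 and -0.11, the farthest at -1.37 yardstick SDs. The percentage of kept genes called was 7.15% without TGF-b1 and 8.14% with it, beside 0 of 10 in both. The median genotype difference of the 10 genes was -0.10 and -0.09, against -0.0003 and -0.002 over all kept genes. In these pairs the mesenchymal stem cell markers had medians of -0.24 without and -0.02 with TGF-b1. Of 10 smooth muscle and pericyte markers, with medians of 0.10 and -0.02, 1 was at least 1.5-fold higher and 2 lower without TGF-b1. With it, 0 were higher and 3 lower. Tagln differed by -0.70 and -0.62, Cnn1 by -0.90 and -0.76 and Mcam by -0.53 and -0.72. The 1 higher was Rgs5, at 0.67 and 0.08, from an untreated Snail1-WT value under the lowest kept mean. Its dimmer probe set gave 0.38 and 0.67. Lmod1 differed by 0.30 and 0.07, Myh11 by 0.19 and 0.16 and Acta2 by -0.04 and 0.03. The part of these marker shifts in the differences of Tgfbr3 and Eng was not tested.

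Tgfb1 was the higher in Snail1-KO cells in both pairs, by 0.165 and 0.22, or 1.46 and 1.98 yardstick SDs. Tgfb2 differed by 0.04 and 0.22, or 0.24 and 1.25 yardstick SDs. Tgfb3 changed sign, at -0.51 without and 0.28 with TGF-b1, or -5.96 and 3.28 yardstick SDs. It ranked 621st from the bottom without TGF-b1 and 2452nd from the top with it. Smad2 differed by 0.19 and -0.22, Smad3 by -0.22 and 0.19, and Smad4 by 0.004 and -0.08.

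**Figure D3:**
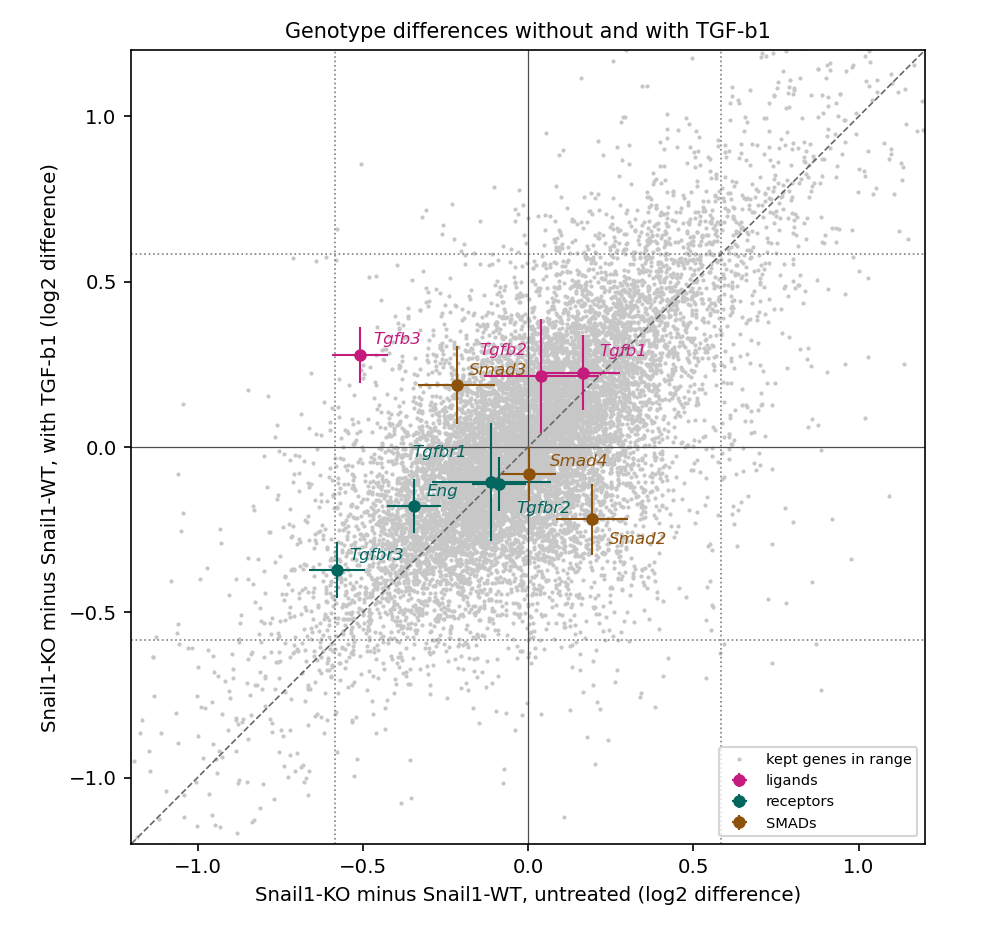
Snail1-KO minus Snail1-WT log2 difference in untreated cells on the x axis and in cells with TGF-b1 on the y axis, for the 10 genes (coloured by role, bars of 1 yardstick SD) and the kept genes within the plotted range (grey); dotted lines mark 1.5-fold and the dashed line equal differences. The 4 receptor genes lie below 0 on both axes, Tgfbr3 lowest at -0.58 and -0.37, and Tgfb3 and Smad3 lie to the left and above 0.

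The response of Snail1-WT cells was then subtracted from that of Snail1-KO cells. Tgfb3 was the sole gene of the 10 past 1.5-fold, at 0.79, or 1.73-fold, and ranked 50th from the top; 3.58% of kept genes were called. That percentage was 7.25% with no filter on low values and 1.34% over the upper 40% of genes. The difference for Tgfb3 was 6.53 times the yardstick SD for a difference of responses, which itself comes from such differences among other genes. The value joins a level that was lower by 0.51 without TGF-b1 and higher by 0.28 with it, so the untreated arrays contributed more of it than the treated ones. The next largest were Smad2 at -0.41 and Smad3 at 0.40, or -2.68 and 2.43 yardstick SDs. Tgfbr3 was at 0.21, Tgfb2 at 0.18, Eng at 0.17, Smad4 at -0.09 and Tgfb1 at 0.06. For Tgfbr1 and Tgfbr2 the difference was 0.005 and -0.02, and Snai1 itself was at -0.69. Responses and genotype differences share arrays: the low Tgfb3 value on the untreated Snail1-KO array enters its untreated genotype difference, its Snail1-KO response and the difference of the responses alike.

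The genes whose 4 values, each centred on its own mean, lay nearest to those of Tgfb3 were sought among the kept genes. Predicted gene models, clone names, pseudogenes, small RNA and some other symbols were left out of that search. They were the microfibril gene Mfap4 (Euclidean distance 0.14), the stress-response gene Gadd45b (0.15), Smad6, which encodes an inhibitory SMAD (0.15), the chondrogenic regulator Sox9 (0.18) and the collagen receptor subunit gene Itga11 (0.27). Their Snail1-WT responses ran from 0.88 to 1.26 and their Snail1-KO responses from 1.62 to 2.01. All 5 were lower in untreated Snail1-KO than in untreated Snail1-WT cells, by values from -0.36 to -0.62, and higher with TGF-b1, by 0.12 to 0.39. Mfap4 measured 4.11 in untreated Snail1-KO cells, under the lowest kept mean, so the size of its response there is uncertain. The 5 genes were picked for their nearness to Tgfb3, so their like responses and genotype differences follow from that choice. The likeness rests on 4 arrays. For Tgfbr1, sought after its values were seen, the nearest were the ETS repressor gene Erf (0.03), the ephrin gene Efna3 (0.04) and Tent4a (0.04).

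Other genes of the pathway were followed as lists. Every list count of responses below stands beside all kept genes, of which 2.48% were called higher and 1.89% lower in Snail1-WT cells. In Snail1-KO cells 3.31% were called higher and 1.83% lower. Of 22 genes for the storage and activation of latent TGF-b, 21 were measured and 17 kept. In Snail1-WT cells 4 measured genes were at least 1.5-fold higher and 0 lower after TGF-b1, with a median of 0.18, and in Snail1-KO cells 6 and 0, with a median of 0.31. The integrin subunit gene Itgb3, whose product pairs with the αv subunit to bind the latent complex, was higher by 1.28 and 2.02. Ltbp2, of the latent TGF-b binding protein family, was higher by 1.13 and 1.28. At the other end were Itgb8, whose product also binds the latent complex, at -0.58 and -0.05, and Ltbp4 at -0.19 and -0.08. Furin, the protease that cleaves the TGF-b propeptide, was named after its values were seen and was higher by 0.65 and 0.77.

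Of 23 genes for inhibitory SMADs, co-repressors and receptor turnover, all were kept, and 7 were at least 1.5-fold higher in the Snail1-WT response and 8 in the Snail1-KO response, with 0 lower in either. Medians were 0.08 and 0.25. The SMAD co-repressor gene Skil was higher by 2.62 and 3.31, and Pmepa1, which sequesters receptor SMADs, by 2.51 and 3.06. The lowest were the deubiquitinase gene Usp11 (-0.17 and 0.25) and Strap (-0.11 and -0.12) in Snail1-WT cells, and Tgif2 (0.04 and -0.22) and Wwp1 (-0.01 and -0.12) in Snail1-KO cells.

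Of 13 other receptor and SMAD genes of the TGF-b family, all were measured and 10 kept. In Snail1-WT cells 2 measured genes were at least 1.5-fold higher and 0 lower, with a median of 0.23. In Snail1-KO cells 3 were higher and 1 lower, with a median of 0.27. The lower one was Acvrl1, which did not pass the filter. Smad9, a SMAD of the BMP branch, was higher by 0.98 and 1.18, and measured 4.47 in untreated Snail1-KO cells, under the lowest kept mean. The type I receptor genes Acvr1 and Acvr1b were higher by 0.71 and 0.80 and by 0.48 and 1.03. The type II receptor gene Acvr2b was at -0.42 and -0.33, with a yardstick SD of 0.23, and the BMP receptor gene Bmpr1a at -0.03 and -0.08. The other type II receptor genes of the list were not lower. Bmpr2 was at 0.58 and 0.52, Acvr2a at 0.08 and 0.34 and Amhr2 at 0.06 and 0.01.

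The list of extracellular proteins that bind TGF-b or its relatives, or that are secreted modulators of it, held 13 genes. In each genotype 3 were at least 1.5-fold higher and 0 lower, with medians of -0.04 and 0.16. Only Fstl3 and Tgfbi were called in both genotypes. The other call was Aspn in Snail1-WT cells, at 0.72 and 0.32, and Fmod in Snail1-KO cells, at 0.09 and 0.95. A dimmer Fmod probe set gave 0.19 and 0.12. The activin antagonist gene Fstl3 was higher by 1.64 and 1.69 and Tgfbi, a matrix protein gene named for its induction by TGF-b, by 0.83 and 0.99. Fst was at -0.37 and -0.15, the proteoglycan gene Dcn at -0.20 and -0.32 and Lrg1 at -0.14 and -0.34. Among 14 measured kinases and adaptors that act downstream of the receptors without SMADs, 0 were called in Snail1-WT cells. In Snail1-KO cells 0 were higher and 1 lower, Map2k6, which was at -0.55 and -0.64. Map3k7, encoding the kinase TAK1, was at 0.37 and 0.22, Map2k3 at 0.29 and 0.19, Mapk8 at 0.16 and 0.29, Pak2 at 0.25 and 0.29, Rhoa at -0.15 and -0.22 and Tab1 at -0.01 and -0.47. For Rhoa, a dimmer probe set gave -0.13 and 0.16 and the dimmest -0.53 and 0.003.

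Of 19 measured early targets of TGF-b signalling, 15 were at least 1.5-fold higher and 2 lower in the Snail1-WT response, and 14 and 0 in the Snail1-KO response. The medians were 1.32 and 1.33, but single genes differed between the genotypes. The Snail1-KO minus Snail1-WT difference of the responses had a median of 0.33. In it 6 genes were at least 1.5-fold higher and 2 lower, where 3.58% of all kept genes were called. Without TGF-b1, 0 were higher and 6 lower in Snail1-KO cells, where 7.15% were called, with a median of -0.29. With it, 1 was higher and 2 lower, where 8.14% were called, with a median of 0.05. Snai1, the targeted gene, is among the lower each time. Ccn2 led the responses at 2.84 and 3.82, with a dimmer probe set at 1.06 and 0.35. Rasl11b responded by 1.82 and 3.43 from values under the lowest kept mean. The inhibitors of DNA binding Id1 (-0.64 and -0.01), Id2 (-0.73 and 0.48) and Id3 (-0.50 and -0.11) were at the lower end. Each of these lists had a larger median than the 10 ligands, receptors and SMADs in both genotypes, except the extracellular binding proteins in Snail1-WT cells. The lists were chosen with earlier results of these data known, so this order may partly reflect that choice. Skil, Smad7, Pmepa1, Ldlrad4 and Tgif1 stand in both the inhibitory list and the early targets and are counted in both.

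**Figure D4:**
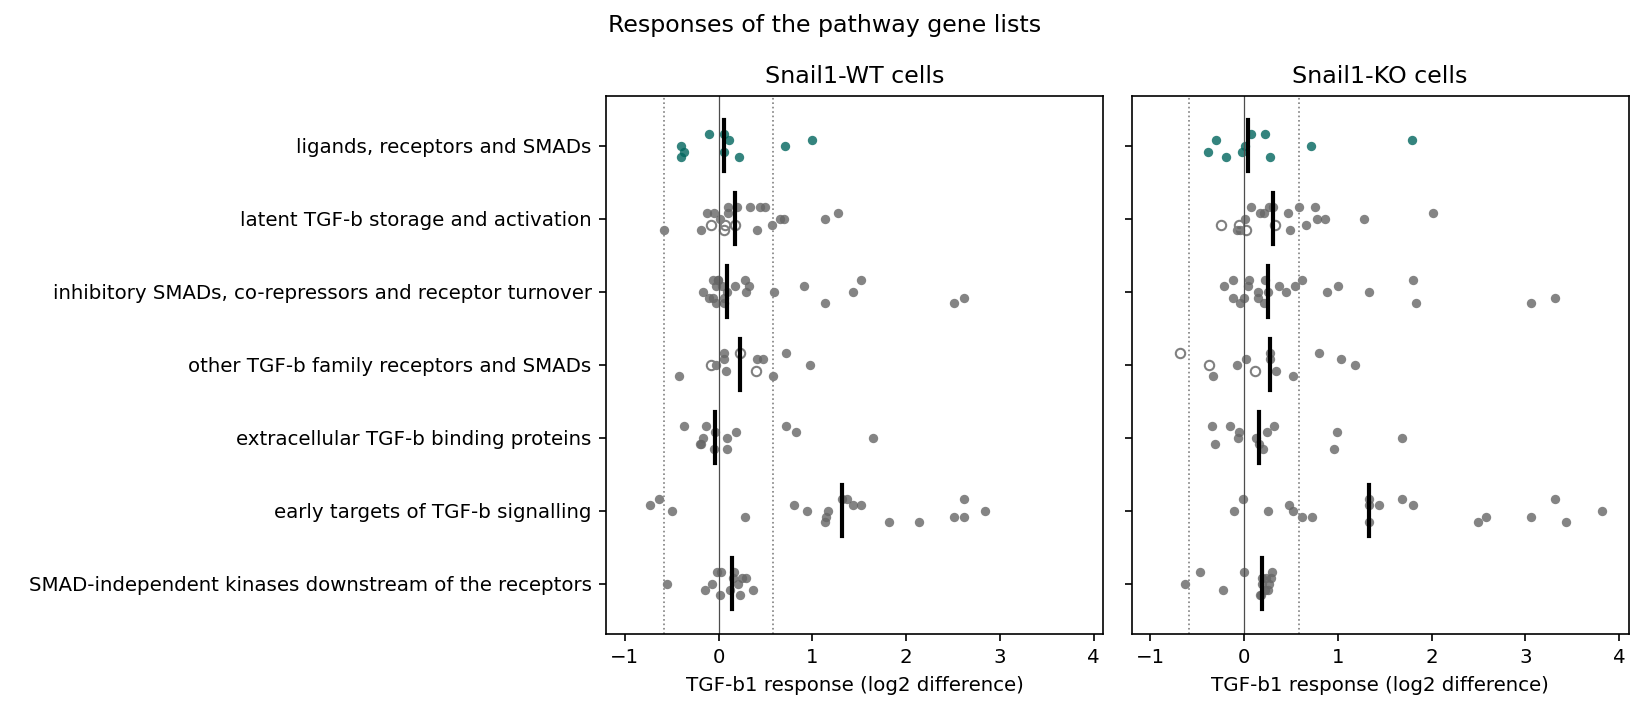
TGF-b1 response (treated minus untreated log2 value) of every measured gene of the 10 ligands, receptors and SMADs (green) and of 6 other pathway lists (grey), in Snail1-WT cells at left and Snail1-KO cells at right; open circles did not pass the filter on low values, black bars are medians over measured genes and dotted lines mark 1.5-fold. The early targets have medians of 1.32 and 1.33, and the ligands, receptors and SMADs 0.06 and 0.04.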

How the data were processed

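Total RNA was labelled with the Affymetrix WT PLUS kit, per the labels' protocols, and the authors deposited log2 values of 4 arrays; the submitters' processing notes name RMA and R 3.1.1. RMA equalises the arrays' distributions, so a shift of most genes one way would be removed; array medians were 4.58 to 4.63. The sources used here give no genome build or annotation. The platform annotation gave 1 symbol to 23521 of 41345 probe sets and several to 1814, and 16010 are unnamed here; all 10 members carried the same symbol in RefSeq's GRCm38.p6 table. The brightest probe set by mean stood for a gene, and the upper 60% of genes by mean were kept. The yardstick SD is 1.4826 times the median absolute deviation of the responses' difference, over the square root of 2 except for that difference itself. The procedure was run on simulated data with independent noise of the same size for all genes. Such data hold no spread shared by the arrays of a genotype, so the run is no check of the yardstick on these arrays.

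The members, lists, threshold and motifs were chosen with earlier results of these data known. Named genes were all members, Snai1, the 2 highest and 2 lowest kept genes of each list in each response, and the 5 genes nearest the member with the widest range; a few others were named after their values were seen. Alternatives were a 2-fold call, median centring, cyclic loess (limma 3.58.1, R 4.3.3), the mean of probe sets and other filters. Python 3.11.15, numpy 2.4.6, pandas 2.3.3 and matplotlib 3.10.9 were used.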

Additional observations from a re-analysis of the deposited data

Results flagged for a closer look

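For 4 of the 10 genes the response to TGF-b1 had opposite signs in the genotypes. The difference was not tested, since each group had 1 array. Smad2 responded by 0.11 in the Snail1-WT and by -0.30 in the Snail1-KO genotype, a difference of -0.41, and Smad3 by -0.40 and 0.005, a difference of 0.40. The value of Smad3 in Snail1-KO cells lay at 0.05 yardstick SDs and was -0.01 with cyclic loess, so its sign there carries no weight. Tgfb2 responded by -0.10 and 0.08, a difference of 0.18, and Smad4 by 0.06 and -0.03, a difference of -0.0855, and both differences were under 1 yardstick SD.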

How the results depend on the processing

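With a call at 2-fold in place of 1.5-fold, the count of called members went from 2 to 0 in the Snail1-WT response, from 2 to 1 in the Snail1-KO response and from 1 to 0 for the difference of the responses; it was 0 in both genotype pairs at either threshold. With median centring, cyclic loess and the mean of probe sets, these counts were the same, and each of the 50 values of the 10 genes moved by less than its yardstick SD, by at most 0.05, 0.04 and 0. The signs of 3 values near 0 changed: Smad3 in the Snail1-KO response (-0.01) and the difference of the responses of Tgfbr1 (-0.01) with cyclic loess, and that of Tgfbr2 (0.02) with median centring. For the difference of the responses, the percentage of genes past 1.5-fold was 7.25% with no filter and 1.34% over the upper 40%. The mean of probe sets is no check here, because each member had 1. No paired test was possible because each group had 1 array. A fit of treatment with genotype as a block would leave 1 residual degree of freedom and was not run. The number of arrays limits the precision.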

Other observations

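By calls at 1.5-fold, the genes for extracellular TGF-b binding proteins differed more often between genotypes than the 4 receptor genes, of which 0 were called. The list was chosen with earlier results of these data known. Of 13 measured genes, 2 were at least 1.5-fold higher and 3 lower in untreated Snail1-KO cells, and 4 and 2 with TGF-b1, where 7.15% and 8.14% of all kept genes were called. The genes named here were chosen after their values were seen, unless named before. Fmod, encoding the collagen-binding proteoglycan fibromodulin, measured 7.85 and 7.94 in Snail1-WT cells and 5.69 and 6.65 in Snail1-KO cells, untreated and treated in that order, a difference of -2.16 and -1.30; its other probe set gave -1.29 and -1.36. Fmod responded by 0.95 to TGF-b1 in Snail1-KO cells in the brighter probe set and by 0.12 in the other. The largest difference of the list was that of the proteoglycan gene Aspn, which measured 5.54 and 6.26 in Snail1-WT cells and 9.78 and 10.10 in Snail1-KO cells, higher by 4.23 and 3.83. Dcn differed by -1.59 and -1.71. Cd109, whose product is a TGF-b co-receptor that limits signalling, measured 8.55 and 8.64 in Snail1-WT cells and 9.65 and 9.77 in Snail1-KO cells, higher by 1.10 and 1.13. Fst, an activin antagonist gene, differed by -0.74 and -0.52. Other genes of the list differed less, such as Fstl1 by 0.02 and 0.08 and Vasn by -0.25 and -0.16. The medians over the list were 0.02 and 0.08.

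The 21 measured genes for latent TGF-b storage and activation were counted by the same call at 1.5-fold. Before treatment, 1 gene was called higher and 2 lower in the Snail1-KO genotype, beside 7.15% of all kept genes called in either direction. After treatment, 2 were called higher and 1 lower, beside 8.14%. Medians over the list were -0.04 and -0.03. Named next are the genes called in either pair. Itgb3 measured 5.07 and 6.35 in Snail1-WT cells and 5.92 and 7.93 in Snail1-KO cells, higher by 0.85 and 1.59. The fibrillin gene Fbn2 differed by -1.34 and -0.75, and Thbs1, encoding thrombospondin 1, which can release the latent ligand, by -0.75 and -0.33. Itgb8 differed by 0.08 and 0.62.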
